A study of Homo sapiens with 21 samples.

Results

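The E2F factors and the RB family were followed as 10 genes, namely E2F1, E2F2, E2F3, E2F7, E2F8, TFDP1, RB1, RBL1, RBL2 and LIN54, taken by symbol from the array's annotation out of 18132 annotated genes. All 10 passed the filter on low values, which kept 12644 genes, and 32 probe sets (groups of probes read out as 1 value) carried their names. RNA was measured on 21 Affymetrix 3' expression arrays from 4 established human breast cancer cell lines treated for 6 hours with 50 or 250 nM THZ1, a covalent inhibitor of the transcription kinase CDK7, or with the solvent DMSO alone. MDA-MB-468 and BT-549 are triple-negative lines, ZR-75-1 is oestrogen receptor positive (ER+), and T47D is positive for the oestrogen and progesterone receptors. Each dose had 2 arrays in MDA-MB-468, in ZR-75-1 and in T47D, called the replicated lines below and listed in that order, and 1 array in BT-549. Cells were kept in serum-containing RPMI-1640.

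E2F proteins are transcription factors that bind DNA together with a DP partner such as TFDP1. E2F1, E2F2 and E2F3 activate genes for S phase entry, whereas E2F7 and E2F8 are atypical members that bind without a DP partner and repress many of the same genes. The pocket proteins RB1, RBL1 (p107) and RBL2 (p130) hold E2F factors in repressive complexes until cyclin-dependent kinases phosphorylate them. LIN54 is the DNA-binding subunit of the MuvB core, which joins RBL1 or RBL2 in the DREAM complex and contacts the CHR element of G2/M promoters. Several of these genes are themselves known E2F targets.

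Promoter windows from RefSeq (GRCh38.p14), from 250 bases before to 50 bases after an annotated start, were present for 9 of the 10 genes. Of these, 8 were used, because the RB1 window lay at an internal start 172699 bases from the gene's 5' end. All other windows were used, also those at nearer internal starts, such as both of LIN54 (2107 and 2118 bases away). They were searched on both strands for the E2F word TTCCCGC and its variants, which are TTGGCGC, and likewise TTCGCGC, and also TTGCCGC, none of which overlapped another in the windows of these genes. A word was found in 6 of the 8 genes (E2F1, E2F2, E2F3, E2F7, RBL1 and TFDP1), against 13% of all 35116 windows in the table. The CHR word TTTGAA was found in E2F3, LIN54 and RBL2, against 15.2% of all windows. Both percentages are per window, whereas a member was counted if any of its windows held the word. E2F3, LIN54 and RBL2 each had more than 1 window, and those of LIN54 overlap and hold the same CHR word. A match describes letters in a window and is no measure of binding. The promoters of the activators E2F1, E2F2 and E2F3 and of E2F7 are shown because those 4 genes carry E2F words and differed in their response below. Each is a 180-base stretch, 5' to 3' on the gene's strand, with E2F words in capitals, at chr20:33686386-33686565 (minus strand) for E2F1, chr1:23531234-23531413 (minus) for E2F2, chr6:20401699-20401878 (plus) for E2F3 and chr12:77065570-77065749 (minus) for E2F7.
E2F1: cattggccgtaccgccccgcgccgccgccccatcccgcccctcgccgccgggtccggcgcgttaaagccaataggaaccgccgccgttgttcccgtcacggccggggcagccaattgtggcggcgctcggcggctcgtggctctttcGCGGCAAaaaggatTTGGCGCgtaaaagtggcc
E2F2: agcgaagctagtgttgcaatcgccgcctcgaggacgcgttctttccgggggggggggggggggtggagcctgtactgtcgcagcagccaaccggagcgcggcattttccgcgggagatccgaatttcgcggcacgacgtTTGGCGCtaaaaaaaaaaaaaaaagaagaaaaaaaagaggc
E2F3: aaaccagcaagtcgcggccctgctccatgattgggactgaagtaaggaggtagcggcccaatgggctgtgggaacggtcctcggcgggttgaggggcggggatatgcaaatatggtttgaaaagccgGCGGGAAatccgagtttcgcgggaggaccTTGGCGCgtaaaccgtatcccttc
E2F7: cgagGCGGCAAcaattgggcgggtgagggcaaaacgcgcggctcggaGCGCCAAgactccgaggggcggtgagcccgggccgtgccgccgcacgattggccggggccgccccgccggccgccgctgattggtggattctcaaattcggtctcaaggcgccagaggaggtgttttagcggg
The E2F words lay 19 and 33 bases before the start in E2F1, 41 bases before it in E2F2, 24 and 53 in E2F3, and 133 and 176 in E2F7.

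The deposited values are linear intensities, used on the log2 scale. Mean intensity per array lay between 326.4 and 342.8, and the mean of each array's 23 background probe sets lay between 23.5 and 31.4. For both ER+ lines the source field reads MDA-MB-468, unlike the title and the stated cell line. The oestrogen receptor gene ESR1 averaged 30.9 ± 2.48 in MDA-MB-468, 442 ± 9.32 in ZR-75-1 and 906 ± 30.4 in T47D on DMSO arrays (SD, n = 2 each), and it read 18.4 in BT-549, so the arrays separated as their titles say. Of 8 markers of immune, endothelial and stromal cells, 4 or 5 lay above background in each line, with summed intensities of 522 to 563 in MDA-MB-468, 251 to 256 in ZR-75-1 and 259 to 262 in T47D. Their sum was 1919.8 in BT-549, mostly from the collagen gene COL1A2, and their part in the results was not tested. No label says that replicate arrays come from separate cultures, and the p-values therefore reflect only array-to-array spread, which may be technical, and the small number of arrays limits the precision.

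**Figure D1:**
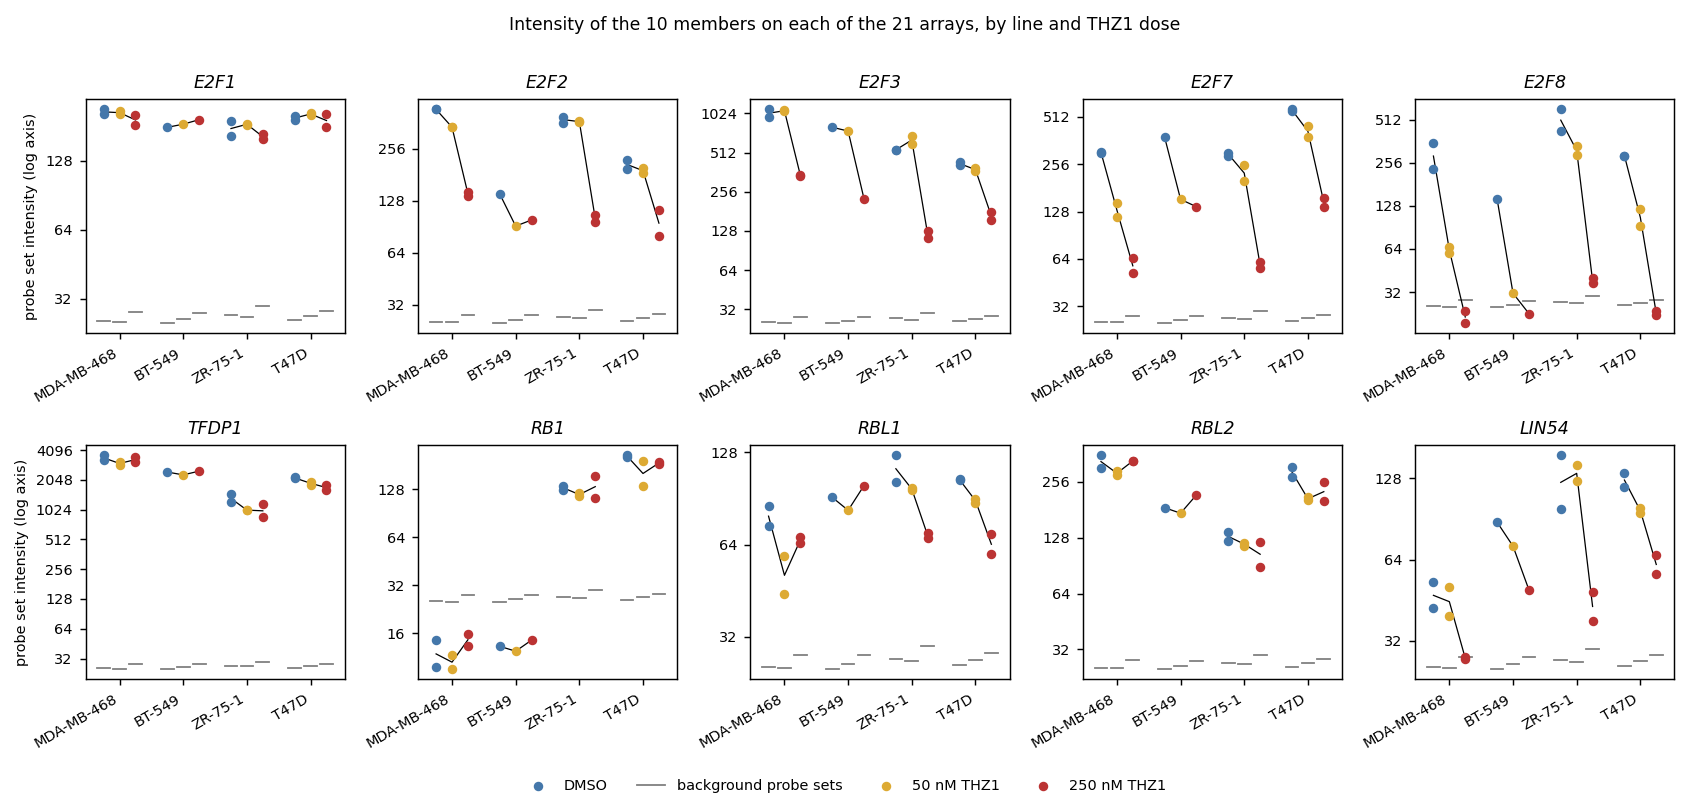
Probe set intensity (log axis) of each of the 10 genes on the 21 arrays, grouped by line, with DMSO, 50 nM and 250 nM THZ1 from left to right; each point is 1 array, black lines join the means of log2 values, and grey lines mark the mean background probe set level. E2F8 falls to the background in MDA-MB-468, BT-549 and T47D at 250 nM, E2F1 stays between 158 and 214, and the main RB1 probe set lies under the background in MDA-MB-468 and BT-549.

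RB1, the retinoblastoma protein gene, separated the lines before treatment. Its main probe set, the one of highest mean, read 14.5 and 9.77 on the MDA-MB-468 DMSO arrays and 13.3 on that of BT-549, against 134 and 127 in ZR-75-1 and 209 and 205 in T47D. Both triple-negative lines were below background and both ER+ lines well above it, with no overlap. RB1 was at least 5.13-fold lower in MDA-MB-468 than in ZR-75-1 and at least 8.11-fold lower than in T47D, counting each MDA-MB-468 array at its background level. RB1 passed the filter on low values only through the ER+ lines. The limma call against their mean (adjusted p = 1.38e-11) used measured values that were below background in MDA-MB-468. That call is therefore given as a description and is no separate support for the difference. MDA-MB-468 and BT-549 are known from other work as lines with defects in RB1. RB1 stayed below background with THZ1 in MDA-MB-468 on this probe set, where the arrays read 11.6 and 9.58 at 50 nM and 13.4 and 15.8 at 250 nM. In ZR-75-1 the RB1 arrays read 134 and 127 with DMSO, 121 and 117 at 50 nM and 156 and 114 at 250 nM. In T47D they read 209 and 205, then 134 and 194, then 189.6 and 185. The 250 nM arrays overlapped the DMSO arrays in ZR-75-1 and lay just below them in T47D. The log2 difference from DMSO at 250 nM was 0.03 in ZR-75-1 (95% interval -0.40 to 0.46, adjusted p = 0.931, but 0.53 and called higher with quantile normalization, 0.0245) and -0.14 in T47D (-0.57 to 0.29, adjusted p = 0.608).

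A second RB1 probe set kept the same order of lines, at 13.4 to 22.7 in MDA-MB-468, 18.8 to 26.9 in BT-549, 54.3 to 72.3 in ZR-75-1 and 76.8 to 115 in T47D over all doses. The third did not. It read 423, 418 and 427 in BT-549 with DMSO, 50 nM and 250 nM, whereas the other lines gave 9.28 to 35.0 on their 18 arrays. BT-549 was thus at background on the main RB1 probe set and clearly above it on the third, on each of its 3 arrays. Which part of the transcript each probe set reads was not tested.

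**Figure D2:**
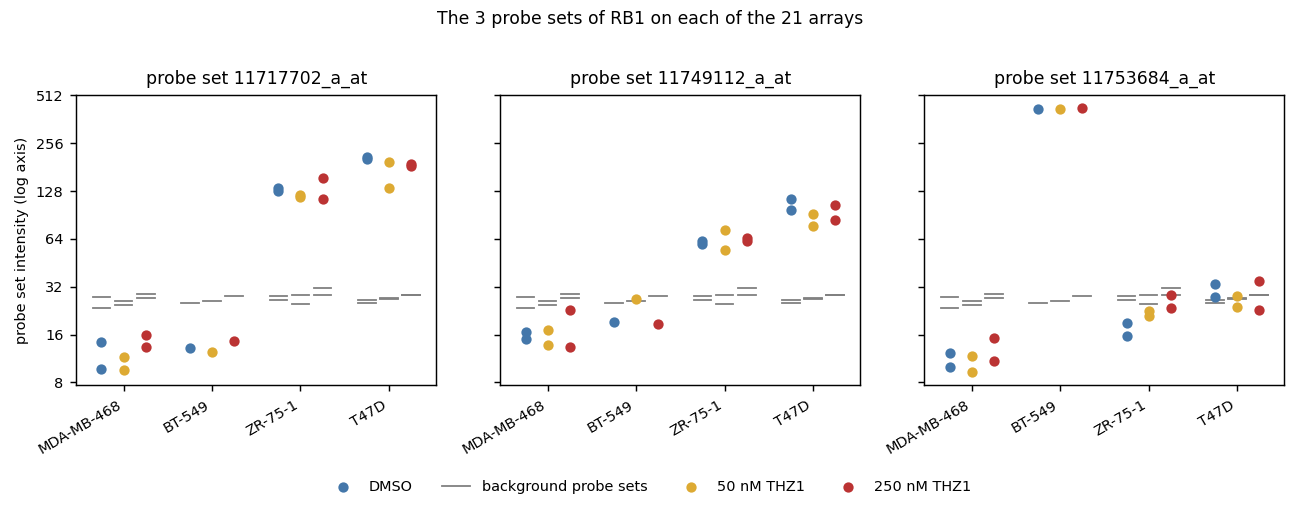
Intensity (log axis) of the 3 RB1 probe sets on the 21 arrays by line and dose; each point is 1 array and grey lines mark each array's background level. In the first 2 panels both triple-negative lines lie low, and in the third BT-549 stands at 418 to 427 while every other array reads 35.0 or less.

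The other members also differed between untreated lines. Against the mean of ZR-75-1 and T47D, 5 of the 10 genes were lower in MDA-MB-468 and 4 were higher, beside 34.4% and 33.1% of all genes tested, so differences between these lines were common among all genes too. The higher ones were E2F3 (log2 difference 1.11 ± 0.08, SE), TFDP1 (1.02 ± 0.10), the pocket protein gene RBL2 (0.76 ± 0.12) and E2F2 (0.63 ± 0.11). The lower ones beside RB1 were LIN54 (-1.41 ± 0.17), RBL1 (-0.45 ± 0.12), E2F7 (-0.43 ± 0.12) and E2F8 (-0.42 ± 0.17, adjusted p = 0.0359). The E2F8 call was lost without the first MDA-MB-468 array (-0.11, adjusted p = 0.629), the first ZR-75-1 array (0.132) or either T47D array (0.0634 and 0.0635), and the RBL1 call without the second MDA-MB-468 array (0.0667). Calls of several genes also depended on the probe set. For LIN54 the other probe sets that reached the filter gave -0.39 (limma adjusted p = 0.0613), -0.23 (0.316), -0.01 (0.977) and 0.34 (0.184). A further TFDP1 probe set gave 0.14 (0.451). With the mean over probe sets, E2F2 was 0.16 (adjusted p = 0.0801) and E2F7 -0.20 (0.0778), the second E2F2 probe set gave -0.31 (0.0818), the second E2F7 one 0.03 (0.87), and the other RBL1 probe sets gave -0.30 (0.0502) and -0.16 (0.317). E2F1 was not called (0.17 ± 0.08, adjusted p = 0.0702), but lay near the threshold. With the mean over probe sets it was called at the same 0.17 (limma adjusted p = 0.0401). Its difference was 0.22 without the first ZR-75-1 array. Between the ER+ lines, ZR-75-1 was lower than T47D in 4 genes (RBL2 -1.15, E2F7 -0.93, TFDP1 -0.69, RB1 -0.66) and higher in 3 (E2F2 0.86, E2F8 0.82, E2F3 0.35), against 37.1% and 25.9% of all genes.

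At 250 nM THZ1, 5 of the 10 genes fell in MDA-MB-468, 7 in ZR-75-1 and 8 in T47D, and limma called 0 higher. Of all genes tested, 30.3% fell in MDA-MB-468, 42.8% in ZR-75-1 and 33.7% in T47D, and 9.54%, 9.93% and 9.62% rose. The share of members that fell was above that of all genes in each line. The members were chosen with earlier results of these data known, and 10 genes give only a coarse share. At an unadjusted p under 0.05 also 0 were higher. Quantile normalization gave 7 lower and 2 higher in ZR-75-1 and 7 lower and 1 higher in T47D, and median centring gave 5 lower and 1 higher in MDA-MB-468. The higher ones were E2F1 and RB1 in ZR-75-1, E2F1 in T47D, and RB1 in MDA-MB-468 (0.50), where its main probe set lay below background. Median centring ended the TFDP1 calls in ZR-75-1 and T47D and the RBL2 call in T47D. With the mean over probe sets both T47D calls ended, and RBL1 was added as lower in MDA-MB-468. E2F2, E2F3, E2F7, E2F8 and LIN54 fell in all 3 lines. The median log2 difference of the 10 genes was -0.52 in MDA-MB-468, -1.13 in ZR-75-1 and -0.87 in T47D, beside -0.07, -0.18 and -0.08 for all genes tested. These are bulk samples in which a fixed mass of RNA was amplified from oligo(dT), so fewer cells with an RNA and less RNA per cell cannot be told apart.

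**Figure D3:**
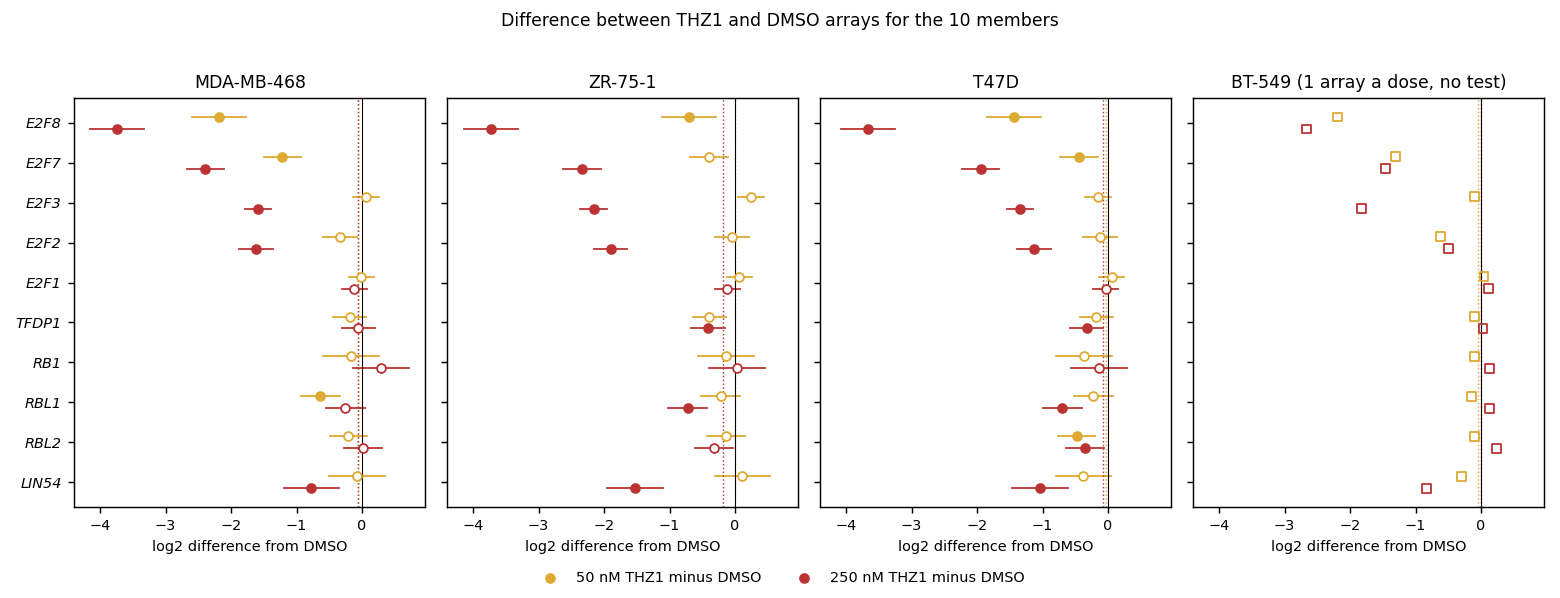
Log2 difference between THZ1 and DMSO arrays (x axis) for each gene (y axis) in 4 lines at 50 and 250 nM; circles are limma estimates with 95% intervals, filled where the adjusted p was under 0.05, squares are single BT-549 arrays, and dotted lines mark the median of all genes. E2F8 is the lowest gene in each line at 250 nM, drawn at measured values that lie below background in MDA-MB-468, BT-549 and T47D, and E2F1 and RB1 have intervals across 0 at 250 nM.

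E2F8, an atypical repressor, showed the largest fall among the 10 genes in every line. On MDA-MB-468 arrays it read 229.9 and 354 with DMSO, 66.4 and 59.6 at 50 nM, and 19.5 and 23.5 at 250 nM. ZR-75-1 gave 605 and 428, then 291 and 335, then 36.8 and 39.8. T47D gave 287 and 288, then 92.9 and 121, then 21.9 and 23.5. The 3 doses did not overlap in any of these lines, and the 250 nM arrays of MDA-MB-468 and T47D were below background. E2F8 at 250 nM was at least 10.2-fold lower than with DMSO in MDA-MB-468 and at least 10.1-fold lower in T47D, and 13.3-fold lower in ZR-75-1, where it stayed above background (limma adjusted p = 2.35e-10, 6.55e-10 and 1.18e-10). At 50 nM the log2 difference was -2.18 ± 0.19 in MDA-MB-468 (adjusted p = 1.49e-06), -0.70 ± 0.19 in ZR-75-1 (0.0346) and -1.44 ± 0.19 in T47D (0.000182). The ZR-75-1 call at 50 nM was lost without the first DMSO array or either 50 nM array of that line (adjusted p = 0.0804 to 0.272).

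E2F7, the partner of E2F8 in repression, read 302 and 306 with DMSO in MDA-MB-468, 145 and 118 at 50 nM and 64.7 and 51.8 at 250 nM. In ZR-75-1 it read 303 and 289, then 252 and 200.2, then 56.2 and 60.8. In T47D it read 559 and 570.0, then 381 and 449.8, then 137 and 156. Each dose lay below the one before it in all 3 lines, without overlap. At 250 nM the log2 difference of E2F7 was -2.39 ± 0.13 in MDA-MB-468, -2.34 ± 0.13 in ZR-75-1 and -1.95 ± 0.13 in T47D (limma adjusted p of 1.01e-08 or less). At 50 nM it was -1.22 ± 0.13 in MDA-MB-468 (adjusted p = 1.18e-05), -0.40 ± 0.13 in ZR-75-1 (0.0845) and -0.45 ± 0.13 in T47D (0.049). The T47D call at 50 nM lay at the threshold and was lost without any 1 of 12 of the 18 arrays (adjusted p = 0.0532 to 0.349).

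The activator E2F3 read 959 and 1099 with DMSO in MDA-MB-468, 1080.0 and 1066 at 50 nM, and 337 and 347 at 250 nM. In ZR-75-1 it read 538 and 537, then 681 and 599, then 128 and 112, and in T47D 435 and 408, then 367 and 390.0, then 154 and 179.5. The low dose left E2F3 near or above its DMSO level in MDA-MB-468 and ZR-75-1, and only the 250 nM arrays stood clearly apart. The log2 difference at 250 nM was -1.59 in MDA-MB-468, -2.16 in ZR-75-1 and -1.34 in T47D (SE 0.09 each, limma adjusted p of 1.12e-08 or less). At 50 nM it was 0.06, 0.25 and -0.16, and none of these passed the test (adjusted p of 0.125 or more).

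E2F2, another activator, read 432 and 431 with DMSO in MDA-MB-468, 340.0 and 341 at 50 nM and 144 and 137 at 250 nM. In ZR-75-1 it read 362 and 392, then 365 and 368, then 96.1 and 106, and in T47D 196 and 219, then 184 and 198, then 79.7 and 113. As with E2F3, the 250 nM arrays formed a separate low group in each line. The log2 difference of E2F2 at 250 nM was -1.62 in MDA-MB-468, -1.90 in ZR-75-1 and -1.13 in T47D (SE 0.12 each, limma adjusted p of 1.5e-06 or less). In MDA-MB-468 the 50 nM arrays lay below both DMSO arrays but the difference was not called (-0.34 ± 0.12, adjusted p = 0.0632).

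E2F1, the third activator, did not follow E2F2 and E2F3. It read 214 and 203 with DMSO, 209.6 and 204 at 50 nM and 183 and 202 at 250 nM in MDA-MB-468, and 189 and 164, 183 and 185, and 158 and 167 in ZR-75-1. T47D gave 199 and 193, 206 and 202, and 179.8 and 203. All 21 arrays lay between 158 and 214, and E2F1 has 1 probe set, so no second reading exists. The log2 difference at 250 nM was -0.12 in MDA-MB-468 (95% interval -0.31 to 0.07), -0.12 in ZR-75-1 (-0.31 to 0.07) and -0.04 in T47D (-0.23 to 0.15). None passed the limma test (adjusted p of 0.299 or more), and under quantile normalization the sign turned and E2F1 was called higher at 250 nM in ZR-75-1 (0.39) and T47D (0.28).

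TFDP1, the DP partner, read 3226 and 3609 with DMSO in MDA-MB-468, 3082 and 2910.3 at 50 nM and 3064 and 3509 at 250 nM. ZR-75-1 gave 1455 and 1209.9, then 1016 and 1007, then 1160.1 and 853, and T47D gave 2115 and 2167, then 1818 and 1963, then 1614 and 1805. The 250 nM arrays lay inside the DMSO range in MDA-MB-468 in part, and below it in both ER+ lines. In ZR-75-1 the 50 nM arrays also lay below the DMSO arrays (log2 difference -0.39, not called). That 50 nM difference was called with quantile normalization (-0.43, limma adjusted p = 0.00888), the mean over probe sets (-0.26, 0.00805) or the replicate block (0.0167). TFDP1 fell at 250 nM by 0.42 on the log2 scale in ZR-75-1 (SE 0.12, limma adjusted p = 0.00773) and by 0.33 in T47D (SE 0.12, 0.0372), and its difference in MDA-MB-468 was -0.06 (95% interval -0.31 to 0.20, 0.756). Median centring ended both calls (-0.17 in ZR-75-1 with adjusted p = 0.219, and -0.20 in T47D with 0.151). Leaving out the first DMSO array or the second 250 nM array of ZR-75-1 ended the ZR-75-1 call (adjusted p = 0.109 and 0.179), and leaving out either T47D DMSO array or the first T47D 250 nM array ended the T47D call (0.0984, 0.133 and 0.217).

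The pocket protein gene RBL1 read 85.6 and 73.5 with DMSO in MDA-MB-468, 58.7 and 44.0 at 50 nM and 67.9 and 64.7 at 250 nM. It read 125 and 102, then 96.5 and 98.0, then 69.9 and 67.3 in ZR-75-1, and 105 and 104, then 87.8 and 90.5, then 69.1 and 59.6 in T47D. On this probe set the ER+ lines stepped down with dose, whereas in MDA-MB-468 the 50 nM arrays were the lowest. RBL1 fell by 0.72 on the log2 scale in ZR-75-1 and by 0.70 in T47D at 250 nM (SE 0.14 each, limma adjusted p = 0.00034 and 0.000701). In MDA-MB-468 it fell by 0.64 at 50 nM (SE 0.14, adjusted p = 0.00408) and had a difference of -0.26 at 250 nM (95% interval -0.56 to 0.04, 0.165). The 50 nM call was lost without the first DMSO array (adjusted p = 0.0536) or the second 50 nM array of MDA-MB-468 (0.082). The other RBL1 probe sets turned this order round in MDA-MB-468, averaging 43.9 and 45.0 at 250 nM, against 49.8 and 47.03 at 50 nM. On both of them the 250 nM arrays of MDA-MB-468 were called lower than DMSO (adjusted p = 0.0174 and 0.0357) and the 50 nM arrays were not (0.245 and 0.136). With the mean over probe sets the 250 nM difference was -0.39 and called (0.00116). One of them showed no step down in T47D, where it averaged 58.5 with DMSO, 67.2 at 50 nM and 58.6 at 250 nM.

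RBL2, the third pocket protein gene, read 305 and 356 with DMSO in MDA-MB-468, 293 and 278 at 50 nM and 334 and 331 at 250 nM. It read 137 and 124, then 116 and 120.4, then 122 and 89.4 in ZR-75-1, and 274 and 306, then 211 and 204, then 256 and 201 in T47D. MDA-MB-468 overlapped its DMSO range at 250 nM, and the ER+ lines lay below theirs. RBL2 was called lower only in T47D among the 3 replicated lines, at -0.48 ± 0.13 with 50 nM (limma adjusted p = 0.0347) and -0.35 ± 0.13 with 250 nM (0.0456), beside -0.32 ± 0.13 in ZR-75-1 at 250 nM (0.059). The 250 nM call was lost with either rescaling (-0.23 with median centring, -0.05 with quantile normalization) and without any 1 of 11 of the 18 arrays (adjusted p = 0.0535 to 0.403). The 50 nM call was lost without any 1 of the T47D DMSO or 50 nM arrays (0.079 to 0.232) and with either rescaling. Both RBL2 calls were also lost with the mean over probe sets (-0.26 at 50 nM, limma adjusted p = 0.0968, and -0.13 at 250 nM, 0.272). The same held with no variance trend (0.055 and 0.0628). At 50 nM the other RBL2 probe sets that reached the filter gave -0.14 (0.631) and -0.24 (0.314). Whether the lines differed in RBL2 was tested at 250 nM with no call (0.03 ± 0.19 for ZR-75-1 minus T47D, adjusted p = 0.932).

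LIN54 read 42.2 and 52.8 with DMSO in MDA-MB-468, 39.5 and 50.5 at 50 nM and 27.3 and 27.8 at 250 nM. It read 156 and 98.4, then 125 and 143, then 48.6 and 37.9 in ZR-75-1, and 119 and 134, then 95.0 and 99.5, then 66.8 and 56.4 in T47D. The 250 nM arrays were the lowest of each line and did not overlap its DMSO arrays, although in MDA-MB-468 they reached the background level. LIN54 fell at 250 nM by 0.77 on the log2 scale in MDA-MB-468 (limma adjusted p = 0.00495), by 1.53 in ZR-75-1 (5.74e-06) and by 1.04 in T47D (0.000466), with an SE of 0.20 in each. The MDA-MB-468 call was lost without the second DMSO array of that line (-0.61, adjusted p = 0.0601).

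At 50 nM fewer members were called. In MDA-MB-468, E2F7, E2F8 and RBL1 fell (3 of 10, against 14.6% of all genes tested), in ZR-75-1 E2F8 fell (1 of 10, against 5.68%), and in T47D E2F7, E2F8 and RBL2 fell (3 of 10, against 7.56%). E2F8 was the member called lower in all 3 lines at this dose. Comparing 250 nM with 50 nM, which share their arrays with the contrasts above, 5 members were lower in MDA-MB-468 (23.2% of all genes), 6 in ZR-75-1 (41.7%) and 6 in T47D (27.2%). In this step limma called 0 members higher, against 725, 838 and 579 of the 12644 genes. In MDA-MB-468, 2 were higher at an unadjusted p under 0.05. Other settings called RBL1 higher there (0.44 with median centring, 0.45 with quantile normalization, 0.38 with no variance trend). RBL2 was called higher with quantile normalization (0.38), and RB1, below background, with median centring (0.53). In ZR-75-1 quantile normalization called E2F1 (0.31) and RB1 (0.64) higher. E2F3 showed -1.65, -2.41 and -1.19 in this step in the replicated lines, and E2F2 showed -1.28, -1.86 and -1.01. E2F7 showed -1.17 in MDA-MB-468 and -1.94 in ZR-75-1, and fell further in T47D as well. RBL1 was among the members called lower in ZR-75-1. That call was lost with median centring (-0.28, limma adjusted p = 0.0964), with quantile normalization (-0.15, 0.373) and on another probe set (-0.34, 0.0775). The LIN54 and RBL1 calls in this step (-0.70 for LIN54 in MDA-MB-468, and -0.66 for LIN54 and -0.47 for RBL1 in T47D) were each lost without any 1 of 3 arrays, the second 50 nM and either 250 nM array in MDA-MB-468 and either 50 nM and the second 250 nM array in T47D (adjusted p = 0.0518 to 0.153).

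BT-549, with 1 array at each dose, has no test. E2F8 read 143 with DMSO, 31.4 at 50 nM and 22.6 at 250 nM, the last below background, at least 5.13-fold lower than DMSO. E2F7 read 379, 153 and 137, and E2F3 read 801, 749 and 225. These 3 genes were past 2-fold lower at 250 nM, against 8.94% of all genes, and E2F7 and E2F8 were past it at 50 nM, against 3.24%. E2F2 read 139.8, 91.2 and 99.0, LIN54 read 88.1, 71.8 and 49.4, and RBL1 read 91.4, 82.9 and 99.8. E2F1 read 179, 184 and 193, RBL2 read 186, 174 and 218, and TFDP1 read 2452, 2296 and 2506, with no ordered step down. RB1 read 13.3, 12.4 and 14.5 on its main probe set, below background, beside the far higher values of the other RB1 probe set described above.

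A limma fit of the response common to the 4 lines, made on 12 group means and adjusted for the line, called 5 members lower at 250 nM, against 29.9% of all genes. E2F8 was among them (limma adjusted p = 0.000135), with no size given because its 250 nM arrays were below background in 3 of the 4 lines. The others were E2F7 (log2 difference -2.04 ± 0.24, limma adjusted p = 0.000305), E2F3 (-1.73 ± 0.16, 0.000112), E2F2 (-1.29 ± 0.26, 0.00389) and LIN54 (-1.04 ± 0.17, 0.00127). At 50 nM limma called 0 members, against 0.498% of all genes in either direction, and 3 were lower at an unadjusted p under 0.05. The smallest adjusted p there was that of E2F8 (-1.63 ± 0.33, 0.0724).

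The response itself was compared between lines. At 50 nM, E2F7 and E2F8 fell further in MDA-MB-468 than in the mean of ZR-75-1 and T47D, by -0.80 ± 0.16 (limma adjusted p = 0.0165) and -1.11 ± 0.24 (0.0199) on the log2 scale, 2 of 10 members against 2.48% of all genes. Both rest on few arrays. The E2F7 difference lost its call without either MDA-MB-468 DMSO array or the second 50 nM array of that line (adjusted p = 0.0565 to 0.121), and that of E2F8 without the second DMSO array or either 50 nM array (0.0603 to 0.107). At 250 nM, where E2F8 lay at or under the background in MDA-MB-468 and T47D, limma called 0 members between the same lines, against 19% of all genes in either direction, and 2 were higher at an unadjusted p under 0.05. The E2F7 difference there was -0.25 (95% interval -0.60 to 0.10).

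Between the ER+ lines, E2F3 and E2F2 fell further in ZR-75-1 than in T47D at 250 nM, by -0.82 ± 0.13 (limma adjusted p = 0.000305) and -0.78 ± 0.17 (0.00372), 2 of 10 members against 19.8% of all genes, so the share is that of the background. At 50 nM limma called 0 members between these lines, against 0.214% of all genes in either direction, and 2 were higher at an unadjusted p under 0.05. The largest of those differences were E2F8 at 0.73 ± 0.27 (adjusted p = 0.437) and E2F3 at 0.41 ± 0.13 (0.337).

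The 32 probe sets of the 10 genes did not all move alike, with p adjusted over probe sets. At 250 nM all 3 probe sets of E2F8 and all 3 of E2F3 were called lower in each replicated line. For E2F7, 1 of 2 was called in each line, and the second stayed between 70.2 and 105 on all 21 arrays. For E2F2, the second probe set (33.0 to 70.5 on all arrays) was called lower in ZR-75-1 and had a difference of 0.26 in MDA-MB-468. The E2F8 probe set with the lowest level was low in untreated MDA-MB-468, with 12 of its 21 arrays above background, and its 50 nM response difference between MDA-MB-468 and the ER+ lines was 0.03, against -1.11 on the main probe set. Its 50 nM arrays in MDA-MB-468 were below background, which bounds the fall that probe set can show. LIN54 was called on 3, 2 and 2 of its 5 probe sets that reached the filter in the replicated lines, and RBL1 on 2, 3 and 2 of 3. TFDP1 was called on 0, 3 and 1 of 5 and RBL2 on 0, 0 and 1 of 3. No probe set of RB1 or E2F1 was called in any line.

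**Figure D4:**
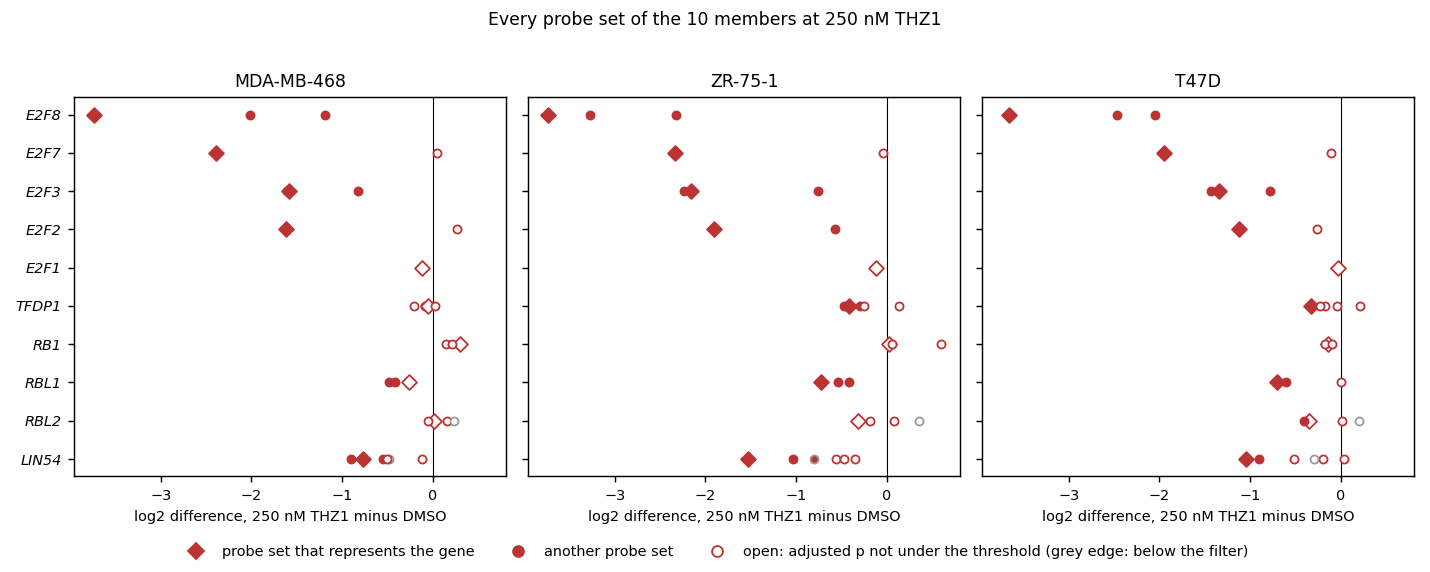
Log2 difference at 250 nM THZ1 minus DMSO (x axis) for every probe set of the 10 genes (y axis) in 3 lines, filled where limma's p, adjusted here over probe sets, was under 0.05; diamonds represent the gene. The probe sets of E2F8 and E2F3 all lie below 0, and the second probe sets of E2F7 and E2F2 lie nearer to 0 than the main ones.

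The remaining E2F and DP genes were measured beside the members. E2F6, a repressor without a pocket protein site, fell at 250 nM with log2 differences of -2.37, -2.68 and -1.47 in the replicated lines. E2F5, which pairs with RBL2, fell with -1.06, -2.59 and -1.34. E2F4, the usual E2F of repressive complexes in resting cells, fell with -0.50, -0.87 and -0.48. TFDP2, a second DP gene, was not called at 250 nM (0.18, -0.09 and -0.09), so 3 of 4 fell in each line (beside 30.3%, 42.8% and 33.7% of all genes), with medians of -0.78, -1.73 and -0.91. E2F5 was also called at 50 nM in all 3 lines, at -0.99, -0.96 and -0.64. In MDA-MB-468 at 50 nM, E2F4 (-0.44) and E2F6 (-0.50) were called lower too. TFDP2 went the other way there and was called higher (0.34, limma adjusted p = 0.0056).

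Among 7 other MuvB and DREAM genes, 4 fell in each line at 250 nM, with medians of -0.59, -1.24 and -1.14. That is 57.1% of the list, beside 30.3%, 42.8% and 33.7% of all genes, and 7 genes give only a coarse share. The MuvB subunit LIN9 had log2 differences of -1.90 in MDA-MB-468 and -2.27 in T47D, and was at least 3.75-fold lower in ZR-75-1, where both 250 nM arrays were below background. LIN37 had -1.26, -1.24 and -1.14 in the replicated lines, and LIN52, which bridges MuvB to the pocket protein, had -0.59, -1.58 and -1.62. MYBL1, a MYB family member, fell with -0.94, -1.56 and -1.34. Its relative MYBL2 rose in MDA-MB-468 (0.27, limma adjusted p = 0.0349) and read 0.21 in both ER+ lines with no call. FOXM1 (-0.03, -0.06 and -0.10) and the histone-binding subunit RBBP4 (0.24, 0.17 and -0.25) were not called in any line.

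Of 16 RB co-repressors and partners measured, 6 fell and 1 rose in MDA-MB-468, 8 fell and 2 rose in ZR-75-1, and 9 fell and 1 rose in T47D at 250 nM. These are 37.5%, 50% and 56.2% lower, beside 30.3%, 42.8% and 33.7% of all genes, with median log2 differences of -0.15, -0.23 and -0.28 beside -0.07, -0.18 and -0.08 for all genes. RBBP6, an RB-binding ubiquitin ligase, fell with -1.81, -2.22 and -2.77, and the Polycomb subunit EED with -0.86, -1.01 and -0.81. ARID4B, an RB-binding subunit of SIN3 complexes, had -2.71 in MDA-MB-468, and the histone methyltransferase gene SUV39H1 had -1.23 in ZR-75-1 and -0.98 in T47D. Of 16 RB kinases, cyclins and CDK inhibitors tested, 11, 9 and 9 fell, and 1, 0 and 1 rose, with medians of -0.45, -0.40 and -0.34. Those that fell were 68.8%, 56.2% and 56.2%, beside the same shares of all genes. CDC25A, the phosphatase that activates CDK2, fell with -1.71, -2.40 and -1.20. CCNE2, a cyclin E gene, had -1.54 in MDA-MB-468 and -2.21 in ZR-75-1, CCNE1 had -1.47 in T47D, the cyclin D1 gene CCND1 had -1.71 in ZR-75-1, and CDKN1B, which encodes the CDK inhibitor p27, had -3.75 in MDA-MB-468 and -1.81 in T47D.

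Genes known to respond to E2F were counted as a list of 56 for G1/S and replication. At 250 nM, 26 fell and 4 rose in MDA-MB-468, 36 fell and 2 rose in ZR-75-1, and 30 fell and 2 rose in T47D, with medians of -0.20, -0.46 and -0.29. Those that fell were 46.4%, 64.3% and 53.6% of the list, beside 30.3%, 42.8% and 33.7% of all genes. Beside CDC25A, the largest statistics belonged to FBXO5, an inhibitor of the anaphase-promoting complex (-3.80 in MDA-MB-468 and -2.15 in T47D), CDC6, a licensing factor (-2.01 in ZR-75-1), SLBP, the histone mRNA binding protein gene (-1.42 in ZR-75-1), and MCM10, a replication initiation factor (-1.33 in MDA-MB-468 and -1.23 in T47D). Of 39 CHR-linked G2/M genes, the class bound by DREAM through LIN54, 26 fell and 0 rose in MDA-MB-468, 27 fell and 1 rose in ZR-75-1, and 22 fell and 1 rose in T47D, with medians of -0.31, -0.43 and -0.33. Those that fell were 66.7%, 69.2% and 56.4%, beside the same shares of all genes. Among them the mitotic kinase gene AURKA had -1.76, -1.47 and -0.96, and the centromeric histone gene CENPA had -1.76, -2.97 and -1.50. NDC80, a kinetochore gene, had -1.95 in ZR-75-1 and -1.04 in T47D, and the spindle motor gene KIF11 had -0.90 in MDA-MB-468. Some genes stand in more than 1 of these lists.

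Patterns like those of the members were sought as the 3 highest Pearson correlations over the 12 line-by-dose means of log2 intensity, which share their lines and doses and are given as a description. E2F8 was followed by GTF2E1 (r = 0.986), which encodes a subunit of the general factor TFIIE, PCF11 (0.979), a transcription termination factor, and DNAAF2 (0.979). E2F7 was followed by SLF2 (0.983), FAM193A (0.976) and RANBP6 (0.974), E2F3 by CDYL (0.981), NKRF (0.980) and FOXJ3 (0.974), and E2F2 by the mismatch repair gene MSH6 (0.984), SIPA1L2 (0.972) and ARRDC2 (0.967). RB1, whose pattern is one of lines, was followed by CYFIP2 (0.997), DNAJC22 (0.996) and CLSTN2 (0.995). LIN54 was followed by OTUD1 (0.974), SIMC1 (0.971) and VPS18 (0.962), TFDP1 by NUDCD2 (0.984), MRPS6 (0.983) and UBA3 (0.980), and RBL2 by CCDC92 (0.973), ZSCAN18 (0.968) and CASTOR3P (0.968). The likeness was weakest for RBL1, with SGO1 (0.934), TBC1D31 (0.931) and KLHL20 (0.921), and for E2F1, with TJP1 (0.939), SNX15 (0.930) and SLC35A5 (0.927).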

How the data were processed

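Total RNA was measured on 21 arrays of 4 lines and 3 doses. Each deposited value is the linear intensity of a probe set, made by the authors with MAS5 per the submitters' processing notes, which give no version. The scaling between arrays is not stated in the sources used here. Per the labels' protocols an RNA spike-in was added by cell number but a fixed RNA mass was amplified, and no spike-in probe set could be named in the table, so no scaling to it was run and no value here is per cell. Through the platform annotation 44988 probe sets have 1 symbol, 1832 several and 2569 none. For each gene the probe set of highest mean log2 value stood for it.

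Values under 1 were set to 1 before log2 was taken, and arrays were not rescaled. The filter asked that at least 1 of the 12 group means be no lower than the overall median (log2 5.84, intensity 57.4). limma 3.58.1 in R 4.3.3 (lmFit, eBayes with trend) took the 18 replicated arrays as 9 groups, with 9 residual and 6.18 prior degrees of freedom, and the 4-line fit had 6 and 3.17. Calls were made where p, adjusted by Benjamini-Hochberg over all 12644 genes of a contrast, was under 0.05. A value was above background where it exceeded the mean of its array's 23 background probe sets, and a group with no array above it gives a bound.

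Named genes are all members, every gene of the 2 short lists (other E2F and DP genes, other MuvB and DREAM genes), up to 3 called genes with the largest statistic per line at 250 nM in the other 4 lists, and 3 genes of like pattern per member. The members, lists and rule were chosen with earlier results of these data known. The fit was tested on simulated data with 200 changed genes. Promoter windows are RefSeq's. Alternatives were median centring, quantile normalization, a floor of 16, no filter, the mean over probe sets, other probe sets, no variance trend, each line alone, a replicate block, and leaving out each array or BT-549, and folds without the bound.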

Additional observations from a re-analysis of the deposited data

Results flagged for a closer look

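E2F7 and E2F8 responded differently between lines at 50 nM THZ1 by a test of the difference itself. Subtracting the average response of the ER+ lines from that of MDA-MB-468 gave -0.80 ± 0.16 on the log2 scale for E2F7 (SE, limma adjusted p = 0.0165) and -1.11 ± 0.24 for E2F8 (0.0199). Both genes had mean differences from DMSO below 0 in all 3 lines, with 2 arrays in each group, and the second E2F7 probe set gave -0.23 with no call (0.687). Of the other E2F8 probe sets, 1 gave -0.53 with no call (0.258), and the other lay below background in MDA-MB-468 at 50 nM, so its value does not measure the difference. With the mean over probe sets the E2F8 difference was -0.53 (0.14) and that of E2F7 -0.51 (0.0489). Leaving out 1 array ended the E2F7 call without either MDA-MB-468 DMSO array or the second 50 nM array (0.0565 to 0.121), and the E2F8 call without the second DMSO array or either 50 nM array (0.0603 to 0.107).

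E2F2 and E2F3 responded differently between the ER+ lines at 250 nM. The change in ZR-75-1 minus that in T47D was -0.78 ± 0.17 for E2F2 (limma adjusted p = 0.00372) and -0.82 ± 0.13 for E2F3 (0.000305), and the second E2F2 probe set gave -0.31 with no call (0.517). The other E2F3 probe sets gave -0.80 (0.0208) and 0.02 (0.977), and with the mean over probe sets both differences stayed called (-0.54 for E2F2, 0.00592, and -0.53 for E2F3, 0.0107).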

How the results depend on the processing

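E2F2, E2F3, E2F7 and E2F8 stayed called lower at 250 nM in each replicated line under every alternative run other than another probe set. Median centring moved the median of all genes by 0.02 to 0.25 on the log2 scale and quantile normalization by 0.01 to 0.26, and the cause of each change below was not tested. The count of members called in T47D at 50 nM (3 as reported) was 1 with median centring, quantile normalization, the mean over probe sets or no variance trend. In ZR-75-1 at 50 nM (1 as reported) it was 2 with quantile normalization or the mean over probe sets and 0 with no variance trend. In the 4-line fit at 50 nM (0 as reported) it was 1 with median centring or quantile normalization. At 250 nM (5, all lower) it was 8 with quantile normalization, of which 6 were lower and 2 higher. The higher ones were E2F1 (0.30) and RB1, and 2843 of all genes were then called lower and 4064 higher. RB1 is given no size here, because its main probe set lay below background in MDA-MB-468 and BT-549 at every dose. Without BT-549, RBL1 (-0.56) and TFDP1 (-0.27) were also called lower in that fit. With the mean over probe sets, the response difference of MDA-MB-468 from the ER+ lines gave 1 call at 50 nM (2 as reported) and 1 at 250 nM (0).

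Same-numbered arrays were not treated as pairs, since no label pairs them and the correlations of their deviations ranged from -0.22 to 0.29 over 9 pairs of groups. With the replicate block the count was 3 in ZR-75-1 at 50 nM (1 as reported), 4 in MDA-MB-468 at 50 nM (3), and 6 in MDA-MB-468 for 250 against 50 nM (5), and no other count changed. The call added in the last of these was RBL1, which was higher (0.38, limma adjusted p = 0.0332), whereas the 5 reported were lower. Where leaving out 1 array raised the count in that contrast, the added gene was also RBL1, higher by 0.38 to 0.59.

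Leaving out 1 array gave counts of 2 to 4 in MDA-MB-468, 0 to 2 in ZR-75-1 and 1 to 3 in T47D at 50 nM, and of 4 to 5, 6 to 8 and 6 to 8 at 250 nM. For 250 against 50 nM they were 4 to 6, 6 to 7 and 4 to 6, for DMSO arrays 8 to 9 between MDA-MB-468 and the ER+ lines and 7 to 8 between ZR-75-1 and T47D. The response difference of MDA-MB-468 gave 0 to 2 calls at each dose, and that of ZR-75-1 from T47D 0 at 50 nM and 2 to 3 at 250 nM. At 50 nM the ZR-75-1 count was 0 without the first DMSO or second 50 nM array and 2 without the second DMSO array or either 250 nM array of that line, and the T47D count was 1 without any 1 of its DMSO or 50 nM arrays. The MDA-MB-468 response count at 50 nM was 1 without its first DMSO or first 50 nM array and 0 without its second DMSO or second 50 nM array. At 250 nM it was 2 without the second DMSO or first 250 nM array of ZR-75-1.

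Some signs turned. Quantile normalization gave E2F1 0.39 at 250 nM against DMSO and 0.31 against 50 nM in ZR-75-1, 0.28 in T47D and 0.30 in the 4-line fit. On other probe sets at 250 nM, E2F2 gave 0.26 (0.0735 against 50 nM) and E2F7 0.0409 (0.27 against 50 nM) in MDA-MB-468, TFDP1 0.13 in ZR-75-1 and 0.21 in T47D, and in T47D RBL2 0.0168, RBL1 0.00159 and LIN54 0.0313. Between DMSO arrays, E2F2 gave -0.31, E2F7 0.0328 and LIN54 0.34 for MDA-MB-468 and TFDP1 0.0353 for ZR-75-1 minus T47D. For response differences, E2F8 gave 0.0326 at 50 nM and 1.68 at 250 nM (0.60 with the mean over probe sets) and E2F2 0.68 at 250 nM for MDA-MB-468, and E2F3 gave 0.0181 for ZR-75-1 minus T47D. The E2F8 probe set behind 0.0326 and 1.68 was below background in MDA-MB-468 at both doses, so those 2 signs, and that of the mean that includes it, do not measure a difference in response.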
